A study of Homo sapiens with 15 samples.

Results

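The comparison described here set U87MG libraries labelled with ID1 against U87MG libraries labelled with ID4. U87MG is an established human glioblastoma line. The cells received lentivirus for 24 h, carrying ID1 in one group and ID4 in the other, and a GFP lentivirus served as the control of the whole series. Each group had 3 libraries, so that the comparison used 6 of the 15 libraries, with the 3 GFP libraries given beside them. All of these cells were transduced, and the promoter of the vector was not given in the sources used here. The labels number the libraries 1 to 3 without naming separate cultures, so the p-values below measure the spread between libraries of the same label, which may be technical. The 3′ ends of polyadenylated RNA were sequenced, and 12767 of the 25737 listed entries had a mean of 10 or more counts over the 6 libraries and were tested. The limit was a narrow one for single genes, since the lowest tested mean was 10 and the highest untested mean was 9.833 counts. Another 6227 entries below the limit had counts and 6743 had none in the 6 libraries. Total counts were 13379741 to 15148979 for ID1 and 11089044 to 13216203 for ID4, and a floor of 3 counts corresponded to a level of 0.1969 to 0.2695 CPM (counts relative to the library total), a limit that covers counting error only. Levels are CPM scaled between libraries, and differences are log2 fold changes of ID1 minus ID4 with their standard error (SE). P-values came from edgeR's quasi-likelihood test and were adjusted over all tested genes by the Benjamini-Hochberg method, and a gene was called at an adjusted p under 0.05. The fit held all 15 libraries, so the spread behind these p-values was also estimated from the libraries labelled GFP, ID2 and ID3. RNA was taken from whole cultures, so fewer cells with a transcript and less of it in each cell cannot be told apart.

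ID1 to ID4 are helix-loop-helix proteins without the basic region that contacts DNA. They pair with the E proteins and keep them, and the tissue-specific factors that need them, from binding E-box sequences. Their genes are targets of BMP signalling, and in glioma they are best known for their link with a stem-like, undifferentiated state.

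The targeted genes were looked at first, because they check the labels. ID4 had 6, 6 and 1 counts in the ID1 libraries and 2744, 2479 and 3110 counts in the ID4 libraries, against 0 to 2 counts in GFP. The ID4 level was therefore 212 to 235 CPM with the ID4 label and under 1 CPM elsewhere in this comparison (log2 difference -9.46, SE 0.17, adjusted p = 3.26e-20). ID1 mRNA was not higher in the libraries labelled ID1. It stood at 245, 247 and 250.2 CPM there, at 261, 298 and 283 CPM in the ID4 libraries, and at 339 to 354 CPM in GFP. All 3 ID1 libraries lay below all 3 ID4 libraries, although the difference of -0.18 was not called (adjusted p = 0.108, two-sided exact permutation p = 0.1, the smallest that 3 libraries against 3 allow). With only these 6 libraries in the fit, edgeR called ID1 lower in the libraries labelled ID1 (adjusted p = 0.0128). For this reason the groups are named by their labels throughout. The values of ID2 overlapped between the groups at 31.4 to 36.6 and 35.0 to 37.7 CPM (exact permutation p = 0.4), where GFP was at 84.1 to 87.9. ID3 also overlapped, at 175 to 187 and 185 to 222 CPM (exact permutation p = 0.2), but was called lower in ID1 by edgeR without ID4 library 1 (adjusted p = 0.0386) and with only the 6 libraries (adjusted p = 0.0368). The counts do not tell a vector transcript from an endogenous one.

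Between ID1 and ID4, 647 of the 12767 tested genes were called (5.07%), 307 of them higher in ID1 (2.40%) and 340 higher in ID4 (2.66%). Most differences were small. The median absolute log2 fold change was 0.40 for the called genes and 0.107 for all tested genes, 400 called genes lay under 0.5, and only 49 higher in ID1 and 39 higher in ID4 exceeded 1. All 647 called genes had no overlap of CPM between the groups, which was also the case for 25.5% of all tested genes. For comparison, 12.7% of the same genes were called higher and 9.97% lower in ID1 against GFP, and 12.3% higher and 9.71% lower in ID4 against GFP. Both of these contrasts share the GFP libraries, so their values are given side by side only. The number of calls depended on how many libraries were kept. It was 423 without ID1 library 2 and without ID1 library 3, 397 without ID4 library 1 and 425 without ID4 library 2.

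**Figure D1:**
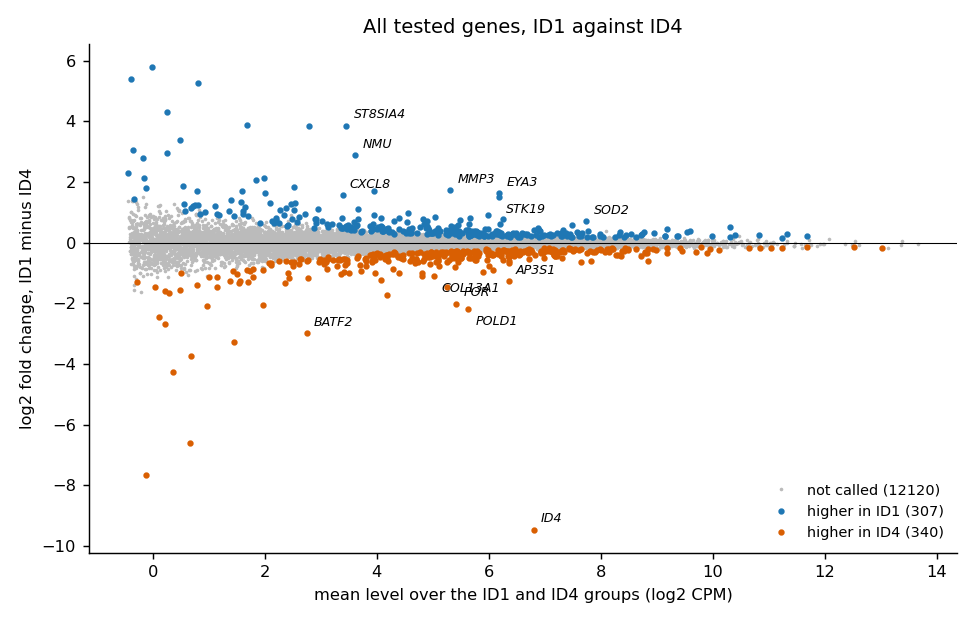
Each point is 1 of the 12767 tested genes, with its mean level over the ID1 and ID4 groups (log2 CPM, x axis) and its log2 fold change of ID1 minus ID4 (y axis). Blue points are the 307 genes called higher in ID1, orange points the 340 called higher in ID4 and grey points genes that were not called. ID4 itself stands far below the rest at -9.46, and at the left edge the fitted values of genes near 0 counts in a group are imprecise.

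The genes with the largest differences among the well-counted ones (a mean of 50 or more counts) included secreted proteins and surface modifiers on the side of ID1. ST8SIA4, which adds polysialic acid chains mainly to NCAM1, had 20.2, 24.3 and 17.1 CPM in ID1 and 1.23, 2.43 and 0.681 CPM in ID4. The lowest ID1 library was several times above the highest ID4 library, and GFP lay with ID4 at 0.751 to 2.03 CPM (log2 fold change 3.86, SE 0.29, adjusted p = 8.19e-09). NCAM1 itself was higher in ID1 as well, at 17.4 to 20.3 against 12.9 to 14.3 CPM (0.50, SE 0.10, adjusted p = 0.00256). ALDH1A1, a dehydrogenase that makes retinoic acid, had 12.7, 13.6 and 12.4 CPM in ID1 and 0.848, 0.898 and 0.909 CPM in ID4 (3.85, SE 0.26, adjusted p = 1.05e-09), while the GFP libraries had 3, 0 and 0 counts. NMU, which encodes the neuropeptide neuromedin U, had 21.4, 19.8 and 23.7 CPM in ID1 and 3.31, 2.79 and 2.57 CPM in ID4. GFP lay between them at 5.50 to 6.43 CPM, so that NMU was above GFP with ID1 (1.87) and below it with ID4 (-1.02). The direct difference was 2.90 (SE 0.16, adjusted p = 4.65e-11).

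Further genes higher in ID1 were MMP3, SULF1, CLDN14, SERPINB2 and IL13RA2. MMP3, a matrix metalloproteinase, had 57.0, 58.0 and 67.6 CPM in ID1 and 18.3, 18.9 and 17.8 CPM in ID4, with GFP below both at 9.65 to 11.04 (1.73, SE 0.10, adjusted p = 7.77e-11). SULF1, which trims sulfate groups from heparan sulfate, had 6.03 to 6.76 CPM in ID1 and 0.984 to 1.98 CPM in ID4 (2.15, SE 0.26). The tight junction gene CLDN14, less often counted, had 96, 80 and 79 counts in ID1, 8, 2 and 5 in ID4 and 4 to 8 in GFP (3.88, SE 0.34). SERPINB2, which inhibits the plasminogen activators, showed another order. It had 10.1, 6.98 and 9.71 CPM in ID1, close to the 8.85 to 10.3 of GFP, and 2.16, 2.96 and 2.42 CPM in ID4 (1.84, SE 0.19, adjusted p = 1.06e-06). The decoy receptor IL13RA2, a surface antigen of many gliomas, likewise differed through its low level in ID4, at 2.31 to 4.77 CPM against 6.32 to 10.1 in ID1 and 5.16 to 6.76 in GFP (1.30, SE 0.24).

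EYA3, STK19 and MDM1, which code for intracellular proteins, stood at a higher level with the ID1 label than in any other group of the series. EYA3, a transcriptional coactivator with phosphatase activity, had 113, 108 and 110.1 CPM in ID1 and 36.5, 35.5 and 33.8 CPM in ID4. The means of GFP, ID2 and ID3 were 37.6, 32.9 and 33.5 CPM, and the difference between ID1 and ID4 was 1.65 (SE 0.06, adjusted p = 4.67e-14). STK19, a nuclear protein gene listed in 6 entries of which only 1 had counts, had 111, 105 and 105 CPM in ID1 and 33.8, 37.6 and 41.2 CPM in ID4, and its means in GFP, ID2 and ID3 were 35.2, 37.8 and 34.3 CPM (1.51, SE 0.08, adjusted p = 2.21e-11). MDM1, which codes for a microtubule-binding centriole protein, had 22.6 to 24.4 CPM in ID1 and 6.51 to 7.64 in ID4 (1.71, SE 0.15), and means of 5.69, 6.86 and 7.51 CPM in GFP, ID2 and ID3. In each of these, the libraries of a group lay close together and far from the other group. They were named for large called differences without overlap, so this separation comes from the naming rule.

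Among the genes higher in ID4, several also stood at 1 common level in the remaining groups. POLD1, the catalytic subunit of DNA polymerase delta, had 82.8, 83.4 and 77.2 CPM in ID4 and 17.1, 19.5 and 16.8 CPM in ID1. Its means in GFP, ID2 and ID3 were 20.2, 17.4 and 20.2 CPM, and the difference of ID1 minus ID4 was -2.19 (SE 0.09, adjusted p = 2.57e-13). POR, the reductase that passes electrons to the cytochrome P450 enzymes, had 68.2, 67.9 and 69.3 CPM in ID4 and 18.5, 15.7 and 16.8 CPM in ID1 (-2.01, SE 0.08, adjusted p = 1.86e-13). AP3S1, a small subunit of the AP-3 adaptor for vesicle transport, had 112, 121 and 114 CPM in ID4 and 48.8, 46.3 and 49.0 CPM in ID1 (-1.27, SE 0.06, adjusted p = 1.05e-11). GFP was at 15.9 to 17.8 CPM for POR and at 45.9 to 49.7 for AP3S1, overlapping the ID1 values of both genes.

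SMURF2, a ubiquitin ligase that acts on SMAD proteins and TGF-beta receptors, had 23.5, 23.7 and 23.4 CPM in ID4 and 11.8, 7.73 and 10.4 CPM in ID1 (-1.23, SE 0.12, adjusted p = 5.21e-07). BATF2, a leucine zipper factor of the AP-1 type, had 11.6, 11.2 and 12.9 CPM in ID4 against 1.44, 0.966 and 2.13 in ID1 and 1.33 to 1.69 in GFP (-2.97, SE 0.24). GSG2, the histone H3 kinase also called haspin, had 5.32 to 7.34 CPM in ID4 and 1.34 to 1.77 in ID1 (-2.04, SE 0.25). GMCL1 (-1.33) made up the rest of this group with SMAP1 (-1.47), which codes for an Arf GTPase-activating protein, and B3GAT2 (-1.73), a glucuronyltransferase. The metalloproteinase gene ADAM8 (-1.17) was an exception. Its level in ID4, 8.93 to 10.3 CPM, overlapped that in ID2, 8.78 to 9.79 CPM, while ID1, GFP and ID3 lay at 3.34 to 4.82 CPM. LINC00341, a non-coding RNA, was another exception. Its ID4 level of 7.09 to 7.73 CPM overlapped that of GFP, and the difference of -1.17 arose from 3.16 to 3.42 CPM in ID1.

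**Figure D2:**
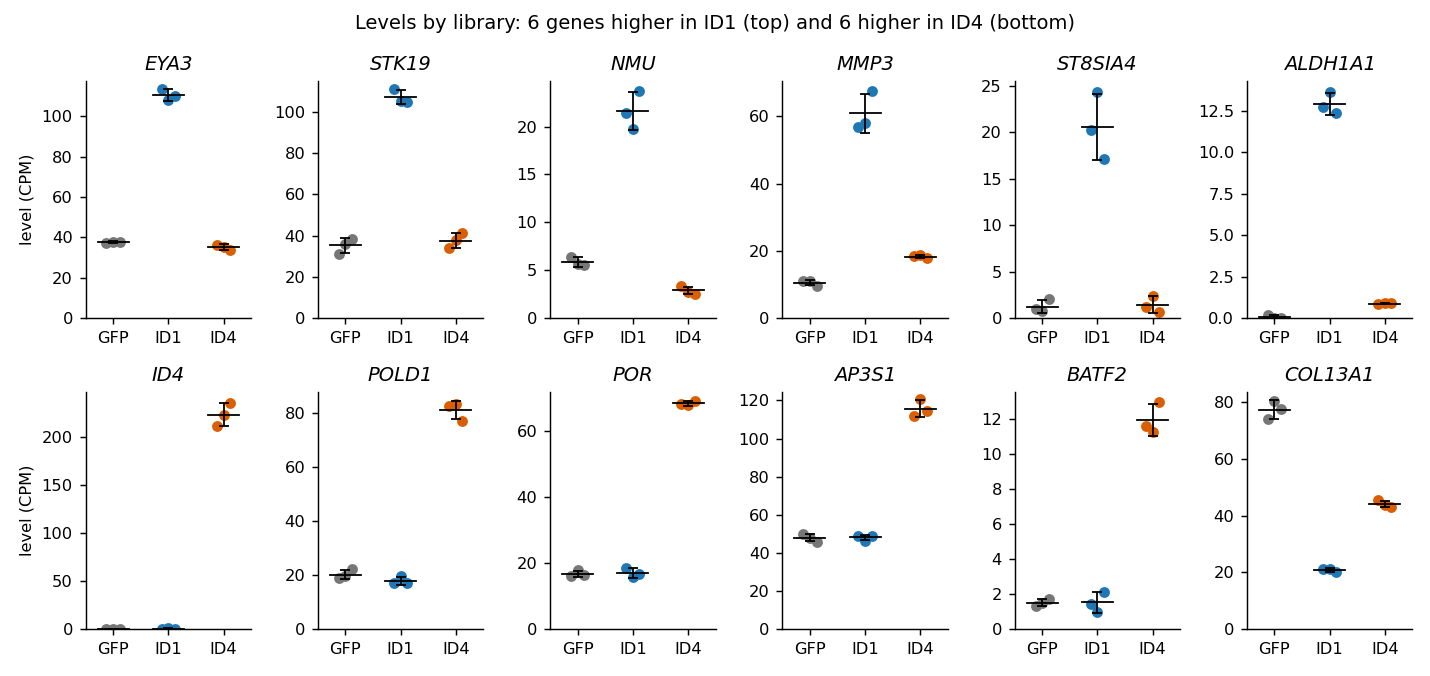
Points are the libraries of GFP, ID1 and ID4 for 12 genes, on a linear CPM axis that starts at 0, with the mean (horizontal line) and SD (bars, n = 3). In the top row the ID1 libraries are above the ID4 libraries and in the bottom row below them, and for EYA3, STK19, POLD1, POR and AP3S1 the other group lies near GFP, whereas COL13A1 was lower than GFP with both labels.

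Some genes counted too rarely for the naming rule were near 0 counts in one of the groups, and those described next were picked with their values in view. SI, the intestinal enzyme sucrase-isomaltase, had 31, 19 and 19 counts in ID4 and 0 in every ID1 and GFP library (adjusted p = 2.99e-05). GRM8, a glutamate receptor, had 39, 32 and 47 counts in ID4, 1, 0 and 0 in ID1 and 0 to 2 in GFP (adjusted p = 8.03e-07). HYAL1, a hyaluronidase, had 28 to 44 counts in ID4 and 2 to 4 in ID1, and CALCRL, part of the receptors for CGRP and adrenomedullin, had 59 to 63 and 5 to 10. GFP lay with ID1 in these 4 genes, at 1 to 2 counts for HYAL1 and 3 to 7 for CALCRL.

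The counterparts in ID1 were UGT2B7, CDHR5, ARG1, CACNB4, LSAMP and PDPN. UGT2B7, a glucuronosyltransferase with close family copies that could share its reads, had 40, 51 and 53 counts in ID1, 0, 1 and 2 in ID4 and 0 in GFP (adjusted p = 7.67e-06). CDHR5, of the cadherin family, had 47, 22 and 16 counts in ID1 and 0, 0 and 1 in ID4 (adjusted p = 5.44e-05), and ARG1, the urea cycle enzyme arginase, had 24, 13 and 27 against 1, 0 and 0. The calcium channel subunit gene CACNB4 had 26 to 45 counts in ID1 and 0 to 2 in ID4, and the adhesion gene LSAMP had 31 to 48 and 2 to 5. PDPN, coding for the membrane glycoprotein podoplanin, had 39, 34 and 18 counts in ID1 and 2, 1 and 7 in ID4. None of these values overlapped between ID1 and ID4, which held for every called gene and for 25.5% of all tested genes.

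Inflammatory genes were the list with the most calls in the direction of ID1. NF-kB is held in the cytoplasm by inhibitors such as NFKBIA until receptors of the IL1 type release it, and it then switches on chemokines, interleukins and its own inhibitors. Of 34 listed genes for IL1, chemokines and NF-kB feedback, 24 were tested, 9 were below the limit and 1 was not found in the table. Of the 24, 10 were called higher in ID1, where 2.40% of all tested genes were, and 0 higher in ID4. The median log2 fold change of the 24 was 0.43 with 21 above 0, beside 0.003 and 6477 of 12767 for all tested genes. The number of called members was 8 to 9 when 1 library was left out.

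Of the chemokines, 4 were called. CXCL8, which attracts neutrophils, had 13.5, 17.8 and 15.7 CPM in ID1 and 5.47, 5.84 and 4.47 CPM in ID4, so the groups were well apart (1.58, SE 0.25, adjusted p = 0.00024). CXCL2, of the same chemokine family, had 10.7, 8.62 and 9.19 CPM in ID1 and 6.17, 5.93 and 4.54 CPM in ID4 (0.78, SE 0.16, adjusted p = 0.00283). In both cases ID1 overlapped GFP, at 11.8 to 17.3 CPM for CXCL8 and 8.51 to 11.9 for CXCL2, and ID4 was below GFP (-1.51 and -0.88). CCL2, which attracts monocytes, had 4.92, 7.504 and 5.81 CPM in ID1, 1.93, 1.62 and 2.20 in ID4 and 2.86 to 3.84 in GFP between them (1.65, SE 0.24, adjusted p = 7.69e-05). CXCL5 had 33, 40 and 32 counts in ID1 and 20, 6 and 13 in ID4 (1.25, SE 0.31, adjusted p = 0.0206), a call that was lost without ID1 library 2, ID4 library 2 or ID4 library 3.

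The factors and inhibitors of the pathway differed less. NFKBIA had 363, 377 and 363 CPM in ID1, 285, 284 and 283 in ID4 and 321 to 334 in GFP, again in the middle (0.37, SE 0.05, adjusted p = 2.49e-05). RELB had 43.1, 39.5 and 37.6 CPM in ID1 and 32.6, 24.8 and 28.02 in ID4 (0.49, SE 0.09, adjusted p = 0.00196). NFKB1 had 17.9 to 19.03 CPM in ID1 and 12.1, 10.8 and 17.3 in ID4 (0.46, SE 0.12, adjusted p = 0.0296), and this call was lost when any library other than ID4 library 3 was left out. The related factor gene NFKB2 did not part the groups, with a difference of -0.08. Of the remaining inhibitors, TNFAIP3 was at 0.46 (adjusted p = 0.116) and NFKBIZ at 0.25 (adjusted p = 0.472).

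Among the other called members, SOD2, the mitochondrial superoxide dismutase and a classical NF-kB target, had 272, 262 and 265 CPM in ID1 and 167, 154 and 166 in ID4, where GFP was at 161 to 180.3 CPM (0.71, SE 0.06, adjusted p = 9.85e-08). The SOD2 means of ID2 and ID3, 264 and 261 CPM, lay near ID1. IL36B, an interleukin of the IL1 family, had 5.35 to 6.11 CPM in ID1, 1.06 to 1.93 in ID4 and 0.250 to 0.423 in GFP (2.08, SE 0.22). IL1RN, which blocks the IL1 receptor, had 8.93, 6.69 and 7.72 CPM in ID1, 4.55, 3.05 and 3.41 in ID4 and 1.40 to 2.20 in GFP (1.08, SE 0.18). Unlike the chemokines, both of these were above GFP with either label. IL1B itself was at 0.40 and not called (adjusted p = 0.211), at 25.3 CPM in GFP and 9.59 and 7.23 CPM in ID1 and ID4.

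**Figure D3:**
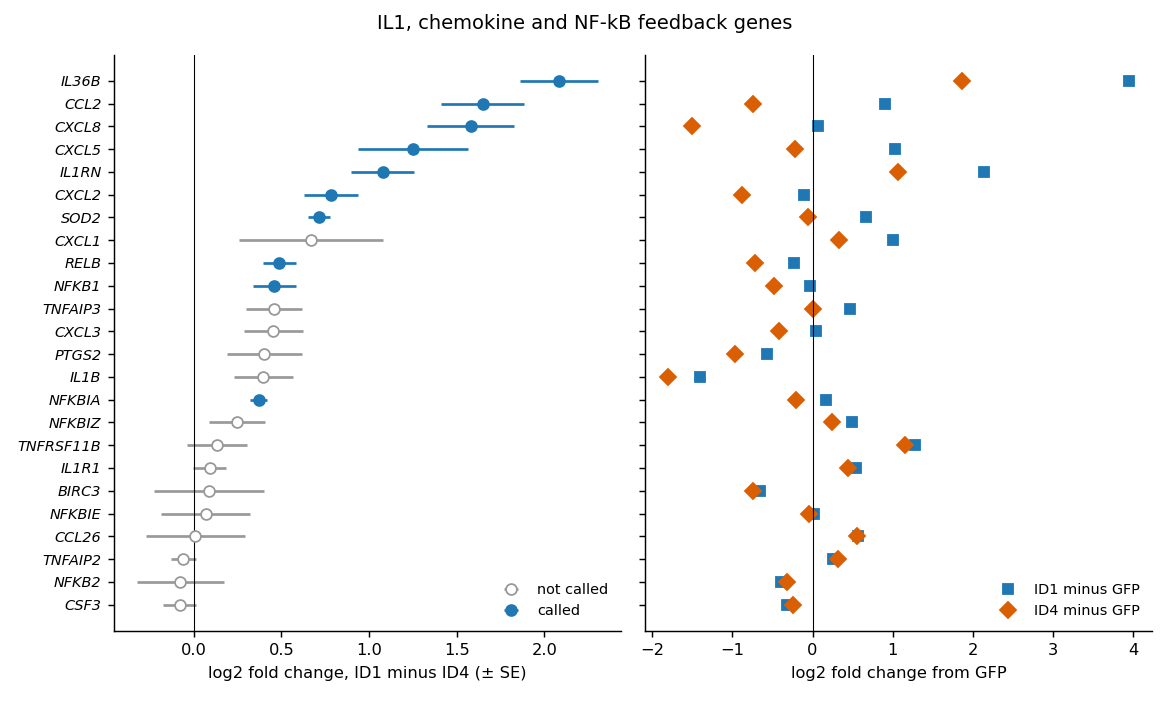
The 24 tested genes of the IL1, chemokine and NF-kB list are ordered by their log2 fold change of ID1 minus ID4 (left, bars are SE, filled points are the 10 called genes). The right panel gives the log2 fold change of ID1 (squares) and ID4 (diamonds) from the shared GFP libraries. The chemokines CXCL8 and CXCL2 differ through a low ID4 value, and IL36B and IL1RN are above GFP with both labels.

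Promoter sequences are shown for the chemokine genes, NFKBIA and NFKB1, since NF-kB sites in such promoters are the textbook link between these genes. They are the 250 bases before the RefSeq start, on GRCh38.p14, and capitals mark matches to GGNNNTTCC or, on the other strand, GGAANNNCC.
CXCL8 (chr4:73740319-73740568, plus strand): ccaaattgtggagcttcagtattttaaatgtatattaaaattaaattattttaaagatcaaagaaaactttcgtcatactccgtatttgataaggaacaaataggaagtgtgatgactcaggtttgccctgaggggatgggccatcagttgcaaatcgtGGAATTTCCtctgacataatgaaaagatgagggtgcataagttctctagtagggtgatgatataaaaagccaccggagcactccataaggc
CXCL2 (chr4:74099196-74099445, minus strand): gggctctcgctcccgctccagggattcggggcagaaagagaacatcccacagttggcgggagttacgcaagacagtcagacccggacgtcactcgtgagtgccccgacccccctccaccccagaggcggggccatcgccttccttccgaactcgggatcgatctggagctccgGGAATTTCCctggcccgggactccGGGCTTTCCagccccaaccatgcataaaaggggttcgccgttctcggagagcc
CXCL5 (chr4:73998678-73998927, minus strand): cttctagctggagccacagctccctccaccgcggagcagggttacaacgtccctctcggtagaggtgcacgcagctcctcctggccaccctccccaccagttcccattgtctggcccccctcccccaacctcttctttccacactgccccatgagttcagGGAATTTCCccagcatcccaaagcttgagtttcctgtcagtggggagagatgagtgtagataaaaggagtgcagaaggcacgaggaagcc
NFKBIA (chr14:35404750-35404999, minus strand): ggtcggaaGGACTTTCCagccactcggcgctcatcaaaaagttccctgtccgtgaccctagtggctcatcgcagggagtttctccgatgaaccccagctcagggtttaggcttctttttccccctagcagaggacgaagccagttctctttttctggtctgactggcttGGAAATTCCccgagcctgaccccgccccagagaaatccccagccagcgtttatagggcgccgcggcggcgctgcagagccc
NFKB1 (chr4:102501109-102501358, plus strand): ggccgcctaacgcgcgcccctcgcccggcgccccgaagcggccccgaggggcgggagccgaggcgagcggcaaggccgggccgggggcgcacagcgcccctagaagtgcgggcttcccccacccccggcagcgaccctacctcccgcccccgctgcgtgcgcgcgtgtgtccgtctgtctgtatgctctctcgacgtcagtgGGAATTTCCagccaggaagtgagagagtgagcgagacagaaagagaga

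The first match began 91 bases before the start in CXCL8, 90 in CXCL5, 77 in CXCL2 and 48 in NFKB1, and CXCL2 had another at 53. NFKBIA had matches at 242 and 81 bases. A promoter was found for 7 of the 10 called genes of the list, and 5 of these 7 held the letters, while IL1RN and SOD2 did not. The list holds NF-kB feedback genes by choice, its uncalled members are not given, and only sequences with a match are printed. CCL2, RELB and IL36B had no entry. The same letters stood in 17.1% of all 27305 promoters, 19.9% of 9401 promoters of tested genes, 22.7% of 220 promoters of genes higher in ID1 and 16.5% of 249 of genes higher in ID4. The E-box CAGGTG, a sequence bound by the E proteins that ID proteins hold back, was found in 16.4% and 14.5% of the promoters of genes higher in ID1 and in ID4, and in 14.9% of those of tested genes. A match is a description of letters, not of binding.

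CXCL8, CXCL5, CXCL2 and NFKB1 lie on chromosome 4, whose genes had a median difference above that of all tested genes. Among the 452 tested genes of this chromosome the median difference was 0.137, with 80.1% above 0, and 33 were called higher in ID1 and 5 higher in ID4. Divided into 4 stretches of 113 genes each along the chromosome, the medians were 0.142, 0.133, 0.124 and 0.161, so the shift was spread over its whole length. In every library the median deviation of its genes from their mean over the 6 libraries lay between 0.0603 and 0.0844 for ID1 and between -0.0635 and -0.0465 for ID4. Against GFP, the medians were 0.033 for ID1 and -0.116 for ID4. CXCL8, CXCL5 and CXCL2 lie in the stretch with a median of 0.133, and their own differences of 0.78 to 1.58 were larger than that. NMU and EPHA5 lie on the same chromosome. Whether the chromosome's level has a part in these results was not tested.

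Chromosomes 8 and 1 are given as well, and the medians of the remaining chromosomes lay between -0.044 (chromosome 16) and 0.055 (chromosome 18). On chromosome 8 the median was 0.078 over 441 genes, and it was 0.136 in the first of 4 stretches and 0.057 to 0.073 in the others. Chromosome 1 leaned towards ID4, with a median of -0.042 over 1237 genes, 22 called higher in ID1 and 58 higher in ID4. Chromosomes 10 and 16 leaned as far, with medians of -0.043 and -0.044. On them 38.1% and 38.3% of the genes lay above 0, beside 38.6% on chromosome 1. On chromosome 1 the shift lay towards the end, with medians of -0.096 and -0.076 in the third and the fourth stretch beside -0.012 and 0.004 in the first and the second. The third stretch held 21 calls higher in ID4 and 1 higher in ID1. On chromosome 8 every ID1 library deviated by 0.030 or more and every ID4 library by -0.0222 or less, and on chromosome 1 the ID1 libraries lay at -0.024 to -0.0194 and the ID4 libraries at 0.0227 to 0.0298.

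**Figure D4:**
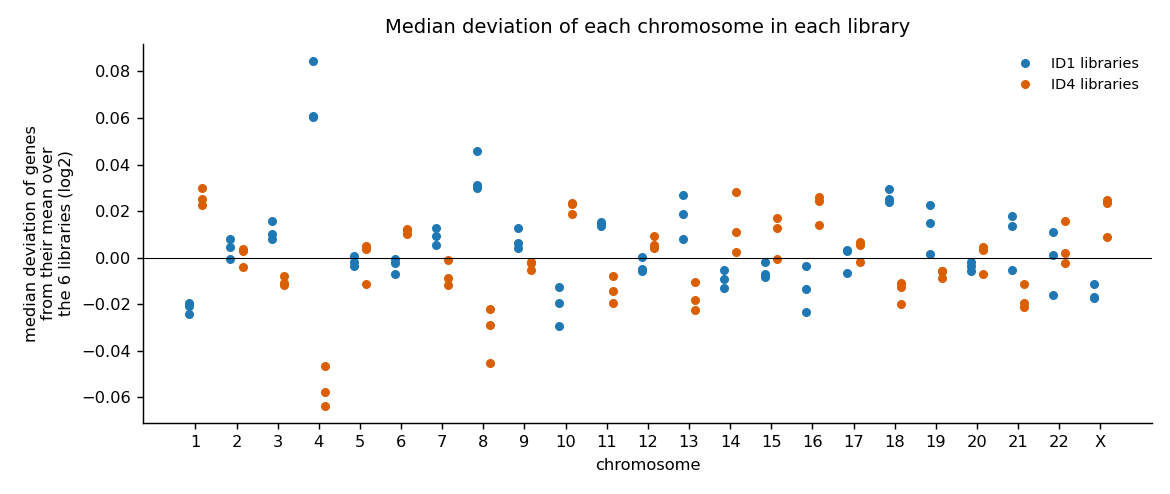
Each point is a library and gives the median, over the tested genes of a chromosome, of the deviation from the gene's mean over the 6 libraries (log2 scale), with ID1 in blue and ID4 in orange. Chromosome 4 parts the groups most widely, with every ID1 library at 0.0603 or more and every ID4 library at -0.0465 or less, followed by chromosome 8. Chromosomes 1, 10 and 16 are among those with the opposite order.

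The neighbours of the genes with a level of their own were examined in windows of 300 kb on either side (gene positions on GRCh37). EYA3 (chr1:28296855-28415148, minus strand) had 12 tested neighbours, 0 of them called, with differences of -0.12 to 0.11. AP3S1 had 6 neighbours and 0 calls as well, and MDM1 had 1 neighbour, which was not called. Of 6 neighbours of POR, HIP1 was called, in the opposite direction (0.25, SE 0.07, adjusted p = 0.0344), and this call was lost whenever 1 of the 6 libraries was left out. POLD1 (chr19:50887461-50921275, plus strand) was different. SPIB, an ETS transcription factor gene of the immune system that begins 920 bases behind the end of POLD1 on the same strand, had 29, 26 and 37 counts in ID4, 0, 4 and 1 in ID1 and 0 to 1 in GFP (adjusted p = 1.06e-05). The next tested gene, EMC10, begins 45086 bases behind the end of SPIB. It was called too, but at a difference of -0.63 and with both groups above GFP (9.71 to 10.8 CPM in ID4, 5.94 to 7.35 in ID1, 1.08 to 1.40 in GFP), a call lost without ID1 library 2.

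STK19 (chr6:31938868-31950598, plus strand) showed the same arrangement in ID1. The complement gene C4A, which overlaps its end on the same strand, had 23, 16 and 21 counts in ID1 and 1, 2 and 3 in ID4 (adjusted p = 0.000175), and C4B behind it had 17, 20 and 24 against 6, 5 and 1 (adjusted p = 0.0126, lost without ID1 library 3 or ID4 library 3). C4A and C4B are near-identical copies, so the share of each is uncertain, and none of the other 24 tested neighbours was called. SMAP1 and B3GAT2 overlap at their ends on opposite strands, and both were higher in ID4. SMAP1 had 54.5 to 57.0 CPM in ID4 and 19.8 to 20.6 in ID1, and B3GAT2 had 26.3 to 29.3 and 8.25 to 8.75. The use of strand in counting was not given in the sources used here, and without it reads of such partners cannot be told apart.

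Over the genome, 9252 pairs of adjacent tested genes lay within 100 kb of each other. Both members were called in 60 pairs (0.649%), in the same direction in 47 and in opposite directions in 13. Of the 47, 20 overlapped and 27 did not. Pairs that did not overlap were LUM with DCN, IL36B with IL1RN, SCG5 with GREM1 and ITGB5 with HEG1 on the side of ID1, and NES with CRABP2, CLU with SCARA3, FOXC2 with FOXL1 and 3 pairs of S100 genes on the side of ID4.

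**Figure D5:**
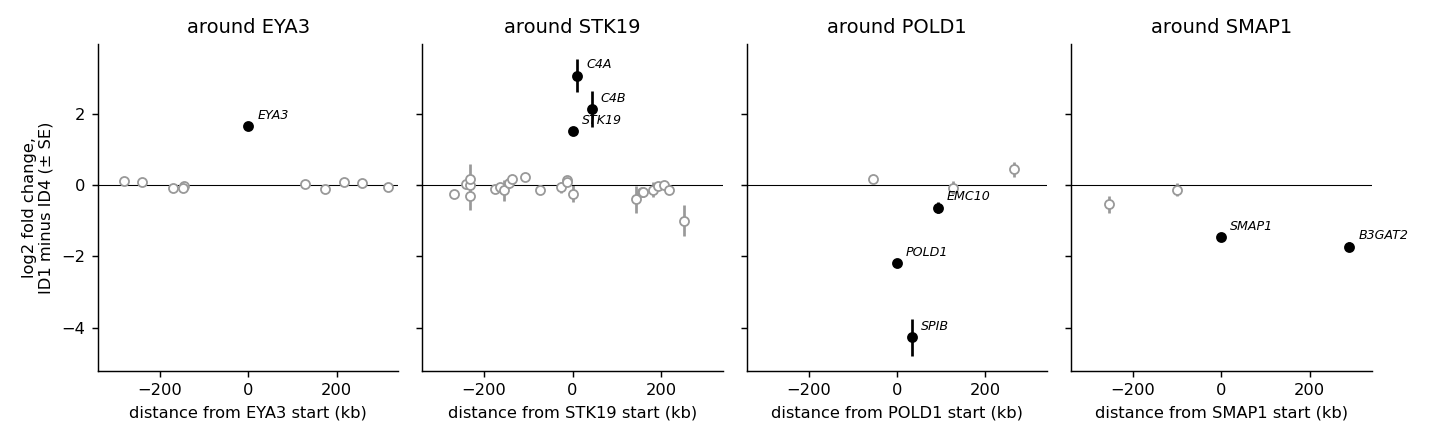
The log2 fold change of ID1 minus ID4 (with SE) is plotted for the tested genes within 300 kb of 4 lead genes against the distance between gene starts in kb. IFI6 and FAM76A, whose starts lie 416.4 and 362.7 kb from that of EYA3, fall outside the drawn range and were not called. Filled and named points were called. EYA3 stands alone, C4A and C4B follow STK19, SPIB and EMC10 follow POLD1 among the tested genes, and SMAP1 and B3GAT2 were lower together.

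Genes that report on ERK signalling leaned towards ID4. The ERK kinases switch on the ETV factors and the DUSP phosphatases that in turn shut the kinases off. Of 22 listed genes 20 were tested, 6 were called higher in ID4 and 2 higher in ID1, beside 2.66% and 2.40% of all tested genes, the median was -0.19, and 5 of 20 lay above 0. DUSP6, an ERK phosphatase, had 27.9, 27.9 and 29.1 CPM in ID1, 41.0, 39.3 and 38.9 in ID4 and 42.2 to 49.6 in GFP (-0.49, SE 0.10, adjusted p = 0.00261). DUSP4 had 4.76 to 7.22 CPM in ID1 and 10.4 to 11.6 in ID4 (-0.85, SE 0.15, adjusted p = 0.000625). Here GFP, at 6.22 to 7.51, lay with ID1, so the phosphatases did not share an order with respect to GFP. ETV1 had 85.8 to 89.3 CPM in ID1 and 105 to 111 in ID4, both below the 157 to 178 of GFP (-0.31, SE 0.06).

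HMGA1, a chromatin protein with AT hooks, was at 174, 190.1 and 174 CPM in ID1, 273, 275 and 271 in ID4 and 282 to 286 in GFP (-0.61, SE 0.05, adjusted p = 9.43e-08). EMP1 was at -0.34 and ETV5 at -0.28 (adjusted p = 0.0279), and the latter call was lost whenever 1 of the 6 libraries was left out. The members higher in ID1 were CCND1, coding for cyclin D1 that drives entry into the cell cycle, with 475 to 501 against 381 to 392 CPM (0.34, SE 0.05, adjusted p = 0.000171), and IER3, an early response gene listed in 6 entries, with 863 to 897 against 659 to 681 CPM (0.38, SE 0.06, adjusted p = 0.000202). The SPRY and SPRED inhibitors were not called, with SPRY2 at -0.14 and SPRED1 at -0.18.

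In the list of actin cytoskeleton genes and targets of the factor SRF, the called genes were higher in ID1 by small amounts. Of 25 tested genes 8 were called higher in ID1 and 0 higher in ID4, with a median of 0.094 and 17 above 0. Of all tested genes, 2.40% were called higher in ID1 and 2.66% higher in ID4. These shares apply beside the counts of each list below. TPM1, a tropomyosin, had 294, 275 and 263 CPM in ID1, 224, 227 and 238 in ID4 and 119.9 to 122 in GFP (0.27, SE 0.05, adjusted p = 0.00185). TPM4 had 711 to 731 and 593 to 656 CPM (0.22, SE 0.05, adjusted p = 0.00504). These calls held with each library left out. CNN1, the smooth muscle calponin, had 63.3, 56.5 and 51.3 CPM in ID1, 43.2, 41.8 and 42.2 in ID4 and 3.98 to 7.89 in GFP (0.43, SE 0.10, adjusted p = 0.0129), and ACTA2, smooth muscle actin, had 11.4 to 13.5, 7.25 to 10.1 and 4.68 to 5.09 CPM (0.50, SE 0.13, adjusted p = 0.0259).

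Most of the actin calls were fragile. The number of called members was 3 without ID1 library 1, ID1 library 3 or ID4 library 1, 4 without ID1 library 2, ID4 library 2 or ID4 library 3, and 5 with the replicate number as a block. CNN1 was lost without ID1 library 1, ID4 library 2 or ID4 library 3, and ACTA2 without ID1 library 1, ID1 library 3, ID4 library 1 or ID4 library 2. ACTB (0.15), MYH9 (0.20), ZYX (0.25) and CALD1 (0.22) had adjusted p-values of 0.0364, 0.0427, 0.0431 and 0.0475, and each lost its call without at least 4 of the 6 libraries. Of the targets of YAP and TAZ, 2 of 18 were called higher in ID1, AXL (0.21) and DLC1 (0.29), with adjusted p-values of 0.0435 and 0.0462. Both lost the call whenever 1 of the 6 libraries was left out, and 7 targets were called with only the 6 libraries in the fit.

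In the BMP and TGF-beta list, 4 of 26 tested genes were called higher in ID1 and 1 higher in ID4, beside 2.40% and 2.66% of all tested genes. The list had a median of 0.068 with 19 above 0, and its calls held with each library left out. TGFB2, the ligand, had 73.4, 70.3 and 68.2 CPM in ID1, 51.7, 51.7 and 52.9 in ID4 and 33.4 to 35.4 in GFP (0.44, SE 0.06, adjusted p = 2.49e-05). It was thus above GFP with either label and further with ID1. GREM1, a secreted BMP antagonist, had 533 to 556 CPM in ID1, 416 to 457 in ID4 and 332 to 370.5 in GFP (0.32, SE 0.05), and the matrix protein gene TGFBI had 3474 to 3706, 2918 to 3090.3 and 2995 to 3202 (0.24, SE 0.05).

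SMAD6, an inhibitory SMAD that BMP signals induce, went the other way, with 18.4, 16.3 and 17.4 CPM in ID1, 22.4, 24.8 and 25.5 in ID4 and 11.9 to 12.5 in GFP (-0.48, SE 0.08, adjusted p = 0.00089). In the WNT list, TCF7, a factor that works with beta-catenin, had 178 to 188 CPM in ID1 and 132 to 142 in ID4 (0.43, SE 0.06), and the ligand gene WNT5A had 54.9 to 57.5 and 66.5 to 73.4 (-0.31, SE 0.07, lost without ID4 library 2). They were the only 2 called of 16. SERPINE2, which inhibits thrombin and urokinase, had 134 to 142 CPM in ID1 and 98.1 to 105 in ID4 (0.44, SE 0.05). It and SERPINB2 belong to the plasminogen activator and serpin list. Of its 14 tested genes 3 were called, all higher in ID1, beside 2.40% of all tested genes.

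Genes of the matrix parted the groups in both directions. Of 25 tested collagens and laminins 5 were called higher in ID4 and 2 higher in ID1, beside 2.66% and 2.40% of all tested genes. The list median was -0.094, and 4 were called in all without ID1 library 3 or without ID4 library 3. COL13A1, a membrane-bound collagen, had 21.3, 21.2 and 20.01 CPM in ID1, 45.4, 43.9 and 43.2 in ID4 and 74.0 to 80.5 in GFP. It was below GFP with both labels and further with ID1 (-1.08, SE 0.07, adjusted p = 9.14e-10). LAMB1, a laminin chain of basement membranes, had 75.5 to 84.6 CPM in ID1 and 100.2 to 111 in ID4 (-0.40, SE 0.06), and COL7A1, the anchoring fibril collagen, had 23.5 to 29.9 and 34.3 to 38.0 (-0.47, SE 0.10). COL3A1, a fibrillar collagen, had 57, 62 and 61 counts in ID1 and 22, 17 and 23 in ID4 (1.36, SE 0.22, adjusted p = 0.000425). LAMA4 (-0.35) was lost without ID1 library 3 or ID4 library 3, COL6A1 (-0.31) without any library other than ID1 library 1, and COL11A1 (1.14, adjusted p = 0.043) whenever 1 of the 6 libraries was left out.

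Of 20 other matrix genes, 3 were called higher in ID1 and 4 higher in ID4, beside 2.40% and 2.66% of all tested genes. Only 3 were called in all without ID1 library 1, ID1 library 2 or ID4 library 3, and 4 without ID1 library 3, ID4 library 1 or ID4 library 2. CHI3L1, a secreted glycoprotein known as a mesenchymal glioma marker, had 27.96, 26.4 and 26.6 CPM in ID1 and 40.6, 43.2 and 39.1 in ID4 (-0.60, SE 0.08, adjusted p = 4.3e-05). AGRN, a heparan sulfate proteoglycan, had 123 to 127 and 152 to 155 CPM (-0.30, SE 0.05). The small proteoglycans LUM (0.78) and DCN (1.82) and the matricellular THBS1 (0.80) were higher in ID1 at low levels, with adjusted p-values of 0.0183, 0.0179 and 0.0302. LUM was lost without ID1 library 1, ID1 library 3 or ID4 library 2, DCN without ID1 library 1, ID1 library 2, ID4 library 2 or ID4 library 3, and THBS1 without any library other than ID1 library 3.

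Receptors for the matrix differed by chain. Among 15 tested integrins, ITGA2, which binds collagen, had 7.81, 8.02 and 5.96 CPM in ID1, 13.3, 13.9 and 15.1 in ID4 and 13.5 to 15.7 in GFP, while the means of ID2 and ID3 were 6.14 and 7.79, near ID1 (-0.96, SE 0.13, adjusted p = 2.38e-05). ITGA7, a laminin receptor chain, had 22.6 to 28.6 CPM in ID1 and 39.4 to 41.9 in ID4, with GFP at 26.3 to 29.6 on the side of ID1 (-0.65, SE 0.08). ITGB5 was higher in ID1, at 159.6 to 169.7 against 126 to 137 CPM (0.33, SE 0.05), and so was ITGB3, at 12.4 to 13.2 against 8.17 to 9.69 (0.54, SE 0.13, lost without ID4 library 1). ITGA1 (0.47, adjusted p = 0.0453) was lost without any library other than ID1 library 3. Of 17 tested cadherins and adhesion molecules 3 were called, all higher in ID1 (beside 2.40% of all tested genes): CLDN14, NCAM1 and CADM1. CADM1, an immunoglobulin-type adhesion molecule, had 80, 53 and 63 counts in ID1 and 21, 17 and 15 in ID4, beside 303 to 361 in GFP (1.69, SE 0.20).

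Among 23 tested metalloproteinases and inhibitors, MMP3, ADAMTS5 (0.29) and ADAM19 (0.75) were called higher in ID1 and ADAM8 higher in ID4. ADAMTS5 was lost without ID1 library 1 or ID4 library 2, and ADAM19 without ID1 library 2, ID1 library 3, ID4 library 1 or ID4 library 2. Sugar-modifying enzymes of the cell surface had 3 of 15 called higher in ID1 and 1 higher in ID4, beside 2.40% and 2.66% of all tested genes. Beside ST8SIA4 these were the sialyltransferase ST3GAL1, at 135 to 139 against 96.7 to 111 CPM (0.39, SE 0.06), the ganglioside enzyme B4GALNT1 (0.45, lost without ID1 library 2 or ID4 library 1), and FUT8, which fucosylates the core of N-glycans, at 25.4 to 27.7 against 33.2 to 36.6 CPM (-0.41, SE 0.09).

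Of 25 tested NRF2 antioxidant genes 4 were called, all higher in ID4, beside 2.66% of all tested genes, with a list median of -0.044. AKR1C3, an aldo-keto reductase of steroids and prostaglandins, had 20.1, 19.4 and 19.9 CPM in ID1, 31.3, 31.9 and 30.7 in ID4 and 29.7 to 37.3 in GFP (-0.66, SE 0.09, adjusted p = 2.27e-05). AKR1C2 had 33.0 to 34.1 and 44.9 to 51.4 CPM (-0.49, SE 0.07) and AKR1C1 had 59.5 to 68.7 and 80.9 to 90.1 (-0.42, SE 0.06). ID4 overlapped GFP in all 3, and these neighbours on chromosome 10 are close copies whose reads could be split between them. The quinone reductase NQO1 was at -0.21 (SE 0.05, lost without ID4 library 2).

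The metallothioneins, which bind zinc and copper, did not move together. MT1M had 62.0 to 69.0 CPM in ID1 and 33.8 to 39.5 in ID4 (0.80, SE 0.08, adjusted p = 8.73e-07), with means of 39.2, 82.5 and 76.7 CPM in GFP, ID2 and ID3. MT1L had 28.4 to 29.3 CPM in ID1 and 35.5 to 42.9 in ID4 (-0.43, SE 0.08). MT2A was at -0.16 (adjusted p = 0.0402), a call lost whenever 1 of the 6 libraries was left out. These genes too are close copies. Of the aldehyde dehydrogenases, ALDH1A3 went against ALDH1A1, with 126, 117 and 127 CPM in ID1, 162, 163 and 162 in ID4 and 306 to 322 in GFP (-0.40, SE 0.05, adjusted p = 1.71e-05).

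Cholesterol synthesis had 3 of 23 tested genes called higher in ID1, DHCR7 (0.39, SE 0.07), SQLE (0.32, SE 0.07) and INSIG1 (0.23, lost without ID1 library 3 or ID4 library 1), and FDPS called higher in ID4 (-0.31, SE 0.06). The shares of all tested genes were 2.40% higher in ID1 and 2.66% higher in ID4. Of 21 hypoxia targets, ANGPTL4, a secreted inhibitor of lipoprotein lipase, had 32.3, 32.5 and 27.7 CPM in ID1, 57.0, 54.4 and 48.6 in ID4 and 54.5 to 66.6 in GFP (-0.79, SE 0.09, adjusted p = 4.19e-06). NDRG1 had 822 to 843 and 629 to 666 CPM, both well below the 2004 to 2147 of GFP (0.35, SE 0.04). VEGFA (-0.28) was lost without ID1 library 2, ID1 library 3, ID4 library 1 or ID4 library 2, and LOX (0.38) whenever 1 of the 6 libraries was left out.

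Of the markers of the glioma stem-like state, SOX9 and NES were called, both lower in ID1. Of 19 tested genes for stemness and glial differentiation, 2 were called higher in ID4 and 0 higher in ID1, beside 2.66% and 2.40% of all tested genes. The list median was -0.035, with 7 above 0. OLIG2, a stem or progenitor marker below the limit for testing, went the other way, at 0.515 to 0.817 CPM in ID1 and 0.151 to 0.270 in ID4. SOX9, a factor of neural stem cells and glia, had 6.43, 6.32 and 6.33 CPM in ID1, 10.1, 10.8 and 10.1 in ID4 and 20.6 to 23.2 in GFP (-0.70, SE 0.14, adjusted p = 0.00297). NES, the intermediate filament nestin, had 16.4 to 20.3 and 24.1 to 29.8 CPM, with GFP at 21.9 to 26.04 (-0.53, SE 0.11, adjusted p = 0.00396). In the IGF list, 2 of 8 genes were called, both higher in ID4, beside 2.66% of all tested genes. IGFBP6, which binds IGF2, had 376, 370.1 and 351 CPM in ID1, 597, 552 and 516 in ID4 and 297 to 339.8 in GFP (-0.60, SE 0.07, adjusted p = 2.76e-06), and the receptor gene IGF1R had 5.96 to 7.28 and 9.01 to 10.6 CPM (-0.58, SE 0.15, lost without ID1 library 2, ID1 library 3, ID4 library 1 or ID4 library 2). Of the other receptor tyrosine kinases, EPHA5 was higher in ID1, at 5.44 to 7.80 against 3.14 to 4.01 CPM (0.90, SE 0.19), and ROS1 (0.94, adjusted p = 0.0418) was lost whenever 1 of the 6 libraries was left out.

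Genes of cell division hardly parted the groups. None of 31 DNA replication genes and 32 mitosis genes was called by edgeR, with medians of -0.001 and -0.016, and 1 and 4 of them had an unadjusted p under 0.05. DESeq2 and limma called none of them either, though POLD1 and GSG2, which are not in these lists, were. With only the 6 libraries in the fit, 2 mitosis genes and 0 replication genes were called. In the list for CDK inhibitors and D cyclins 8 genes were tested. CCND1 and the kinase gene CDK6 (0.35, adjusted p = 0.0261) were called higher in ID1, and CDK6 was lost without any library other than ID1 libraries 2 and 3. None of the 13 tested E proteins and HES or HEY factors, the direct and indirect partners of ID proteins, was called (median 0.019, unadjusted p under 0.05 for 4). The same held for 8 Notch genes (3 under 0.05 unadjusted), 14 of fatty acid synthesis (2), 20 cytosolic tRNA synthetases (2), 17 glycolysis enzymes (2) and 13 replication-dependent histones (4), with 0 calls by DESeq2 and limma as well. Of 18 genes of the IL6, JAK and STAT3 pathway edgeR and limma called 0 and DESeq2 called 1, IL11, and 5 had an unadjusted p under 0.05. With only the 6 libraries in the fit, edgeR called 2 E protein, HES or HEY genes, 4 glycolysis, 3 IL6 pathway, 2 histone and 1 fatty acid synthesis gene, and 0 Notch genes and tRNA synthetases. The ribosomal protein genes had a median of -0.059 with 11 of 76 above 0, and 2 were called, RPLP0 (-0.15) and RPLP1 (-0.15), both lost whenever 1 of the 6 libraries was left out. With only the 6 libraries in the fit 15 ribosomal genes were called.

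The remaining lists held few calls, where 2.40% of all tested genes were called higher in ID1 and 2.66% higher in ID4. Among AP-1 and immediate early genes 2 of 23 were called in each direction, JUN (-0.16, adjusted p = 0.0224) and IER5 (-0.27) higher in ID4 and FOSL2 (0.34) and MAFF (0.38) higher in ID1. IER5 was lost without ID1 library 1 or ID4 library 1, MAFF without ID1 library 2, ID1 library 3, ID4 library 2 or ID4 library 3, FOSL2 without any library other than ID1 library 3, and JUN whenever 1 of the 6 libraries was left out. Of 31 interferon-stimulated genes, IFI16 (-0.34, SE 0.06) and IFI44L (-0.55, lost without ID1 library 2 or ID4 library 3) were higher in ID4. Of 16 heat shock genes, HSPB1 (0.24) and DNAJA1 (0.20) were higher in ID1, the former lost without ID1 library 2, ID1 library 3, ID4 library 1 or ID4 library 3 and the latter whenever 1 of the 6 libraries was left out. Single calls were found among 51 respiratory chain genes (NDUFB1, -0.17), 29 genes of the ATF4 response (STC2, 0.26), 22 of the unfolded protein response (DERL3, 0.89), 25 p53 targets (PLK2, 0.33), 16 of MHC class I and antigen processing (ERAP2, -0.49) and 6 of the LMO2 complex (LMO4, 0.30). NDUFB1 lost its call whenever 1 of the 6 libraries was left out, DERL3 without any library other than ID4 library 2, and ERAP2 without ID1 library 3 or ID4 library 2.

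The cell line was checked against its markers. VIM and CD44 were abundant in all 6 libraries, at 3678 to 3988 and 533 to 574 CPM, and CDKN2A and CDKN2B, deleted in this line, had 0 counts. Of the glial markers, GFAP, S100B, SOX2 and OLIG2 were below the limit for testing, with at most 11 counts in a library. Of 12 immune markers 2 were tested and 3 had 0 counts in all 6 libraries, and their summed level of 54.5 to 56.6 CPM in ID1 and 61.0 to 72.5 in ID4 came almost wholly from CD68, a lysosomal protein, at 49.9 to 52.2 and 55.6 to 66.5 CPM. PTPRC, the pan-leukocyte marker, had at most 2 counts in a library. The 8 endothelial markers summed to 1.58 to 2.21 CPM in ID1 and 1.53 to 2.20 in ID4, the 8 neuronal markers to 33.1 to 38.5 and 29.99 to 33.2, and the 8 oligodendrocyte markers to 339 to 356 and 334 to 350 (nearly all CNP). edgeR and limma called 0 of the 8 tested markers of other cell types, 1 had an unadjusted p under 0.05, and DESeq2 called CD68 higher in ID4. Their part in the results was not tested.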

How the data were processed

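The authors deposited raw counts and log2 values normalized between libraries for 25737 entries and 15 libraries. A company prepared the libraries with a QuantSeq 3′ kit, reads were aligned to hg19 (GRCh37), and the submitters' processing notes name Bowtie2 and BWA. The counting tool and annotation are not given in the sources used here. The deposited log2 values served only as an alternative.

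Counts were fitted in R 4.3.3 with edgeR 4.0.16 (TMM factors 0.977 to 1.026, all 15 libraries, a mean for each group, dispersion 0.00462), and ID1, ID4 and GFP were contrasted. The ID genes were also compared by exact permutation tests on log2(CPM + 1). Fits were tested on simulated data. Alternatives were DESeq2 1.42.0, limma 3.58.1, other filters and scalings, a replicate block, and leaving out each library. The comparison, its lists and named genes were chosen with earlier results of these data known. Named were the ID genes, the 12 largest called differences in each direction with a mean of 50 or more counts and no overlap, the 5 smallest adjusted p-values in each direction, and up to 5 called genes of each list with 2 or more calls. The low-count genes, MHC class II, S100 genes, CRABP2, HIP1, SPIB, EMC10, C4A, C4B, HDAC1, TGM2, single calls of lists and further list members were added with their values in view. Positions came from GENCODE lifted to GRCh37 for 12286 of the 12767 tested genes (11568 by symbol, 718 by an older symbol) and promoters from RefSeq on GRCh38.p14. Figures were drawn with matplotlib. Some genes are not reported here.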

Additional observations from a re-analysis of the deposited data

How the results depend on the processing

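The number of genes called between ID1 and ID4 was 647. It rose to 1091 (490 higher in ID1, 601 higher in ID4) with only the 6 libraries in the fit, and 643 of the 647 were among them. It was 88 when absolute log2 fold changes of 1 or less were also left out, and 397 to 451 with 1 library left out, of which 388 to 419 were among the 647. With fewer libraries in a group the error is wider by construction. Filters of 50 counts or of none, other scalings, DESeq2 and both forms of limma gave 597 to 668 genes. Without TMM the split was 337 higher in ID1 and 309 higher in ID4, where it was 307 and 340 with TMM, and the median of all genes was 0.017 and 0.003.

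Replicate numbers did not pair the libraries. After removal of the group means, deviations of libraries with equal numbers correlated at -0.044, 0.162 and -0.122 across genes, and ID1 library 1 correlated best with ID4 library 3 (0.273). The replicate block gave 554 genes over all 15 libraries and 1027 over the 6 libraries.

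The differences of ID1, ID2 and ID3 moved by less than the spread between libraries under the deposited log2 values and with 1 library left out. That of ID4 was -7.44 on the log2(CPM + 1) scale, -7.52 to -7.30 with 1 library left out and -9.57 in the deposited values. Over 159 named genes and 2521 refitted values, the call was unchanged in 2240, lost in 275 and gained in 6, and the sign turned in 0. The median of chromosome 4 stayed at 0.1275 to 0.149. Counts limit the genes under 50 counts most, 64 of the 647.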

Other observations

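Of 11 genes of MHC class II antigen presentation, which are known to be expressed by some gliomas, 8 were called lower in ID1 than in ID4 and 3 were not called. Of all tested genes, 2.66% were called higher in ID4. They are in none of the lists and were picked with their values in view. HLA-DRA had 68.8, 64.6 and 63.2 CPM in ID1, 107, 96.9 and 92.4 in ID4 and 75.4 to 89.7 in GFP (log2 fold change -0.59, SE 0.07, adjusted p = 1.12e-05 from edgeR). CD74, the invariant chain that guides class II molecules, had 49.7, 52.8 and 49.4 CPM in ID1 and 75.4, 74.3 and 75.2 in ID4, with GFP at 52.8 to 61.0 (-0.57, SE 0.07, adjusted p = 8.96e-06). In both genes the ID4 libraries were above those of ID1 and GFP, and for HLA-DRA they overlapped the ID3 libraries (89.8 to 100.8 CPM). HLA-DMA, which helps to load peptides, had 10.4 to 11.9 and 15.5 to 16.9 CPM (-0.53, SE 0.10), HLA-DRB5 44.9 to 48.8 and 59.6 to 65.2 (-0.40, SE 0.07), and HLA-DRB1 103 to 115 and 126 to 146 (-0.34, SE 0.06). Reads of the DRB genes, and of other class II genes with close copies, could be split between them.

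HLA-DQB1 (-0.43, adjusted p = 0.0205), HLA-DPB1 (-0.44, adjusted p = 0.0396) and CIITA (-0.32, adjusted p = 0.0397), the gene of the factor that switches on class II genes, were called too. Unlike HLA-DRA and CD74, these genes and HLA-DMA, HLA-DRB5 and HLA-DRB1 were not called between ID4 and GFP (edgeR adjusted p = 0.0842 to 0.691). ID1 was called below GFP in HLA-DRA, HLA-DRB1, HLA-DRB5, HLA-DMA, HLA-DPB1 and HLA-DPA1. HLA-DRA thus differed from GFP with both labels, at -0.33 for ID1 and 0.26 for ID4. HLA-DQB1 lost its call without ID1 library 1, ID1 library 3, ID4 library 2 or ID4 library 3, CIITA without any library other than ID4 library 2, and HLA-DPB1 whenever 1 of the 6 libraries was left out. HLA-DPA1 (-0.35, adjusted p = 0.11), HLA-DMB (-0.30, adjusted p = 0.309) and HLA-DQA1 (-0.41, adjusted p = 0.611) were not called. HLA-DRA, HLA-DRB5 and HLA-DRB1 are neighbours on chromosome 6, whereas CD74 lies on chromosome 5 and CIITA on chromosome 16. The summed level of immune markers was also higher in ID4 (61.0 to 72.5 against 54.5 to 56.6 CPM). It came almost wholly from the lysosomal CD68 (55.6 to 66.5 against 49.9 to 52.2 CPM). The leukocyte marker PTPRC had 5 counts in the 6 libraries together, and the part of immune cells in these values was not tested.

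CRABP2, which carries retinoic acid to its receptors, had 60.2, 65.2 and 65.9 CPM in ID1, 101, 109.5 and 93.7 in ID4 and 85.9 to 97.1 in GFP (-0.67, SE 0.07, adjusted p = 1.52e-06). It lies beside NES in the part of chromosome 1 whose genes had a median of -0.096, and so do the calcium-binding S100 genes. S100A4 had 52.8 to 61.4 CPM in ID1 and 71.6 to 84.3 in ID4 (-0.41, SE 0.08) and S100A16 had 89.4 to 97.3 and 109 to 123 (-0.33, SE 0.07). S100A2 (-0.24) lost its call without ID1 library 3, ID4 library 1 or ID4 library 2, S100A6 (-0.16) without any library other than ID4 library 3, and S100A13 (-0.19) whenever 1 of the 6 libraries was left out.

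HDAC1, a histone deacetylase, had 159, 158 and 154 CPM in ID1, 250.2, 245 and 239 in ID4 and 293 to 298 in GFP (-0.64, SE 0.05, adjusted p = 3.61e-09), so that both labels were below GFP and ID1 further. TGM2, which cross-links proteins, showed the reverse order, with 79.4, 81.2 and 85.6 CPM in ID1, 41.6, 48.0 and 42.3 in ID4 and 17.1 to 20.2 in GFP (0.90, SE 0.07, adjusted p = 2.45e-08). Both were picked with their values in view.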
